A study of Mus musculus with 2 samples.

Results

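Fatty acid oxidation was described here through 36 genes of its mitochondrial and peroxisomal arms, chosen by name out of 43346 mouse genes in the deposited tables. All 36 were found by symbol. The donor was an adult C57BL/6J male, 10 weeks old, with no treatment, transgene or mutation in the labels. Polyadenylated RNA was read from its adipose tissue, of a depot that the labels do not name. It came from 1 biosample of 1 donor, sequenced as 2 technical libraries, of which library 2 was made later. Every comparison below is therefore between these 2 libraries, n = 2 throughout, an SD is their technical spread, and no condition was compared with another. A library's own quality and when it was made cannot be told apart.

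Fatty acids are burned in mitochondria after a carnitine shuttle has carried them across the inner membrane. A repeating cycle of dehydrogenation, hydration, a second dehydrogenation and thiolytic cleavage then releases acetyl-CoA, and electrons leave through the electron transfer flavoprotein. Peroxisomes run a parallel cycle, with oxidases in the first step, on very long, branched and dicarboxylic chains, and pass shortened products on as carnitine esters. White fat stores and releases fatty acids more than it burns them, and brown fat is known for high oxidation.

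The libraries held 19954869 and 19256807 expected counts. Mitochondrially encoded genes and their nuclear copies took 51.7% of TPM (transcript abundance per length, scaled to a fixed total) in library 1 and 15.9% in library 2, which lowers the TPM of every other gene more in library 1. All 12 adipocyte markers reached 1 TPM in each library, with sums of 8009 and 17727 TPM, Fabp4 the highest on average and Pparg the lowest. All 12 markers of epididymal epithelium were there as well, with sums of 38664 and 44835 TPM, from Gpx5 down to Ros1. All 8 testis germ cell markers reached 1 TPM in both, with sums of 288 and 1462 TPM. On average Prm2 was the highest and Akap4 the lowest. Prm2 itself was at 2.94 and 516 TPM, the lowest of the 8 in library 1. Of 7 brown adipocyte markers 1, Ppargc1a, reached 1 TPM in both, and they summed to 3.88 and 29.7 TPM. Cox8b, at 0.33 and 16.15 TPM, was highest on average and Elovl3 lowest, with Ucp1 at 0.08 and 0.20 TPM. Hepatocyte markers, 2 of 7 at that level, summed to 8.15 and 14.1 TPM, led by Fga, with Cyp3a11 listed at 0. Skeletal muscle markers, 1 of 7 at that level, summed to 1.99 and 20.8 TPM. Acta1, at 0.09 and 14.2 TPM, was highest on average, and Myh4 was listed at 0. Fewer cells of a type and less RNA per cell cannot be told apart in such bulk RNA, and the part of epididymal and germ cells in the levels of oxidation genes was not tested.

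The sequences below show the base composition of 3 members, a property by which the members' ratios between the libraries are ordered further on. They are the longest coding exon stretch of both subunits of the electron transfer flavoprotein and of the short-chain acyl-CoA dehydrogenase, from the leading coding transcripts in GENCODE M21 on mm10, with every G and C in capitals. Etfa is exon 2 (chr9:55500018-55500164, minus strand), Etfb is exon 6 (chr7:43457570-43457737, plus strand) and Acads is exon 6 (chr5:115111857-115112027, minus strand).
Etfa: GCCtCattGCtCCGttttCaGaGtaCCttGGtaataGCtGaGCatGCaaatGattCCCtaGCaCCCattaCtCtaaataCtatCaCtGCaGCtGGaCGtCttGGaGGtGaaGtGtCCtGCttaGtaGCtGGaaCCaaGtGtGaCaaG
Etfb: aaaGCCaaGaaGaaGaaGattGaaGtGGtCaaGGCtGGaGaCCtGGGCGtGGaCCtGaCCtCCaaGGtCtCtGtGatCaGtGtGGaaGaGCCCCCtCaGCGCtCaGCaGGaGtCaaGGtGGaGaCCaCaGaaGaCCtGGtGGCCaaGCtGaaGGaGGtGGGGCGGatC
Acads: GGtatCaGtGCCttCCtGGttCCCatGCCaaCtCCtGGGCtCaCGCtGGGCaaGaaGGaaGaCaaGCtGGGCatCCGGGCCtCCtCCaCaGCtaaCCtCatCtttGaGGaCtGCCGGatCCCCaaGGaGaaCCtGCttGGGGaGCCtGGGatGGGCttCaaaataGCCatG
Over the whole coding sequence G and C made up 45.4% in Etfa, 57.5% in Etfb and 59.2% in Acads.

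Most members were expressed. In library 1, 30 of 36 were at 1 TPM or more, in library 2, 35 were, and 24 were at 10 TPM or more in both. Scp2, which encodes the peroxisomal thiolase SCPx and the lipid carrier SCP2, was highest in both libraries, at 287 and 848 TPM. Ppard was lowest in library 1 at 0.44 TPM and Acox2 was lowest in library 2 at 0.53 TPM. Over the 36 members the median was 27.5 TPM in library 1 against 66.6 TPM in library 2, and 33 members had the higher TPM in library 2, all but Cpt2, Abcd2 and Crot. With mitochondrial genes and their copies left out of the scaling, the medians were 56.9 and 79.1 TPM, and 24 members were higher in library 2.

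**Figure D1:**
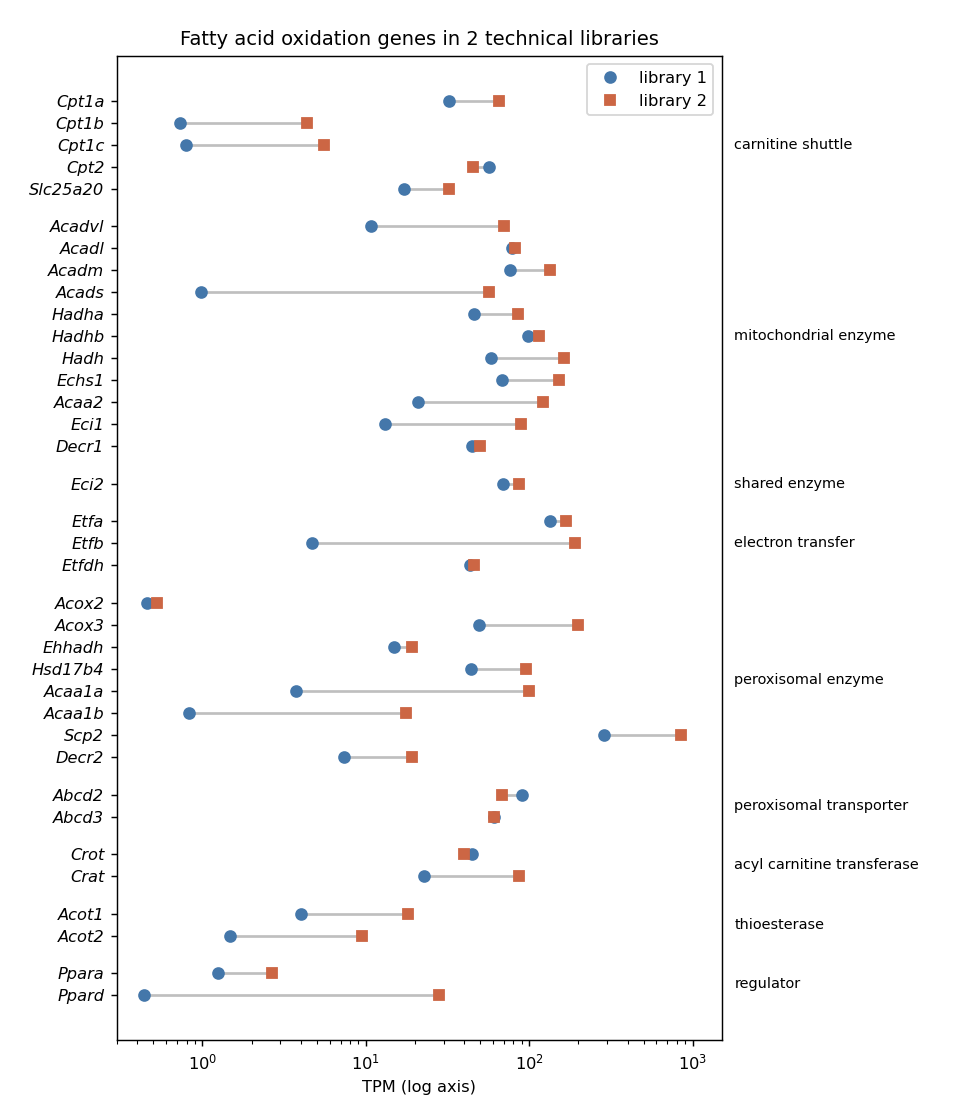
TPM of the 36 members (log axis), grouped by role; circles are library 1, squares library 2, and a grey line joins the values of a gene. Etfb, Acads and Ppard had the longest lines, and Abcd3, at 60.8 and 61.0 TPM, had its symbols on top of each other.

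By gene totals the carnitine shuttle was led by Cpt1a and Cpt2. Cpt1a, the liver-type form of the acyltransferase that commits fatty acids to mitochondrial entry, was at 32.4 and 65.5 TPM in libraries 1 and 2. Cpt1b, the muscle form, was at 0.73 and 4.38 TPM, and Cpt1c, the brain form, at 0.79 and 5.53 TPM. In TPM, Cpt1a thus stood 44.4-fold above Cpt1b in library 1 and 14.9-fold above it in library 2. The rank of Cpt1a over both relatives was the same in each library, while the order of Cpt1b and Cpt1c rested on 34 and 35 counts in library 1. Slc25a20, the carrier that exchanges acylcarnitine for carnitine, was at 17.1 and 32.4 TPM. Cpt2, which turns acylcarnitine back into acyl-CoA in the matrix, was at 56.9 and 45.6 TPM although its expected counts were 665 and 1133. The TPM and the counts of Cpt2 thus went opposite ways, and the length assigned to the gene, by which TPM is divided, was 870.5 bases in library 1 against 2042 bases in library 2. In library 1, 46.75 TPM of the Cpt2 total came from a retained-intron transcript. The full-length coding transcript was at 7.35 TPM there, below Slc25a20.

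The 4 straight-chain acyl-CoA dehydrogenases, which carry out the first step in mitochondria for successively shorter chains, had unlike levels in library 1 and similar ones in library 2. Acadvl, for very long chains, was at 10.8 and 70.3 TPM. Acadl, for long chains, was at 78.3 and 82.0 TPM, and Acadm, for medium chains, at 76.4 and 134 TPM. Acads, for short chains, was at 0.98 and 56.4 TPM, from 23 and 1240 counts (ENSMUSG00000029545.9, chr5:115110299-115119346). Acads alone of the 4 was near the bottom of library 1, and in library 2 the highest of the others, Acadm, was 2.38-fold above it. In library 1 Acadm was 78.0-fold above Acads on the TPM scale. The GC content over all transcripts of each gene was 54.6% for Acadvl, 45.2% for Acadl, 48.9% for Acadm and 59.7% for Acads.

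Genes of the later steps of the mitochondrial cycle spanned 13.1 to 97.7 TPM in library 1 and 50.2 to 163 TPM in library 2. Hadha and Hadhb encode the subunits of the trifunctional protein, which handles long chains, and stood at 45.8 and 85.9 TPM and at 97.7 and 114 TPM. Hadh, the hydroxyacyl-CoA dehydrogenase of shorter chains, was at 58.4 and 163 TPM, and Echs1, the short-chain enoyl-CoA hydratase, at 67.9 and 151 TPM. Hadha had the lowest gene total of these 4 in each library. In library 1 the Echs1 total held 41.4 TPM from an 803-base transcript and 24.0 TPM from the coding transcript of 1557 bases. The Hadhb total there held 22.6 TPM from a retained-intron transcript of 425 bases, listed at 0 in library 2. Acaa2, the matrix thiolase, was at 20.96 and 121 TPM. Among enzymes for unsaturated chains, the isomerase Eci1 was at 13.1 and 89.1 TPM and the dienoyl-CoA reductase Decr1 at 44.4 and 50.2 TPM. Eci2, an isomerase placed in both mitochondria and peroxisomes, was at 68.9 and 86.9 TPM. With mitochondrial genes and their copies left out, Eci2 was at 143 and 103 TPM, although its expected counts were 810 and 1191. The length assigned to Eci2 was 874.5 bases in library 1 against 1208 bases in library 2. All 11 mitochondrial enzymes had a higher TPM in library 2, from 1.05-fold for Acadl to 57.5-fold for Acads. This uniform direction depended on the scaling. With mitochondrial genes and their copies left out, Acadl (162 and 97.5 TPM), Hadhb (202 and 136 TPM) and Decr1 (91.8 and 59.6 TPM) were lower in library 2. The rest were higher.

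Both subunits of the electron transfer flavoprotein work as a dimer, yet their transcripts were at unlike levels in library 1 only. Etfa was at 134 and 168 TPM. Etfb (ENSMUSG00000004610.3, chr7:43444083-43457800) was at 4.65 and 189 TPM, from 52 and 1716 counts. Etfa was 28.9-fold above Etfb in library 1, whereas Etfb was 1.13-fold above Etfa in library 2. Etfdh, which passes these electrons to ubiquinone, was at 43.4 and 46.1 TPM, with a mean of 44.8 ± 1.97 TPM (SD, n = 2). That small SD holds for deposited TPM only. With mitochondrial genes and their copies left out, Etfdh was at 89.8 and 54.8 TPM.

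Peroxisomal enzymes ranged more widely than mitochondrial ones. Of the acyl-CoA oxidases listed, Acox3, which acts on branched chains, was at 49.5 and 199.6 TPM, and Acox2, an oxidase of bile acid intermediates, at 0.46 and 0.53 TPM from 6 and 16 counts. The bifunctional enzymes of the middle steps were Hsd17b4, at 44.3 and 95.6 TPM, and Ehhadh, at 14.8 and 19.1 TPM, so Hsd17b4 was 2.99-fold and 4.99-fold above Ehhadh in TPM. Acox2 was the one peroxisomal enzyme under 1 TPM in both libraries. The thiolase genes Acaa1a and Acaa1b were at 3.72 and 99.3 TPM and at 0.83 and 17.5 TPM. Decr2, the peroxisomal dienoyl-CoA reductase, was at 7.37 and 19.1 TPM. As a gene total over all its transcripts, Scp2 (ENSMUSG00000028603.11, chr4:108043839-108144998) held 70.3% of the summed TPM of the 8 peroxisomal enzymes in library 1 and 65.3% in library 2.

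In deposited TPM, both transporters of the peroxisome and the transferase Crot had values closer between the libraries than the transferase Crat. This order depended on the scaling. Abcd2, a transporter of very long chain acyl-CoA known to be abundant in fat, was at 90.3 and 67.7 TPM, and Abcd3, a transporter of branched and dicarboxylic acyl-CoA, at 60.8 and 61.0 TPM. Crot, which makes carnitine esters of medium chains for export from peroxisomes, was at 44.6 and 40 TPM. Crat, the carnitine acetyltransferase of both organelles, was at 22.5 and 86.5 TPM. With mitochondrial genes and their copies left out, Abcd2 (187 and 80.5 TPM), Abcd3 (126 and 72.5 TPM) and Crot (92.4 and 47.5 TPM) were lower in library 2. Crat (46.7 and 103 TPM) was higher. On that scale Abcd2, at a log2 ratio of -1.22, was further apart than Crat, at 1.14. The acyl-CoA thioesterases were low, with cytosolic Acot1 at 4.02 and 18.2 TPM and mitochondrial Acot2 at 1.47 and 9.43 TPM.

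The nuclear receptors known to switch these genes on had opposite ranks in the libraries. Ppara, the fatty acid receptor best known from liver, was at 1.25 and 2.67 TPM, from 69 and 113 counts. Ppard (ENSMUSG00000002250.11, chr17:28232700-28301474), its widely expressed relative, was at 0.44 and 27.9 TPM, from 20 and 1026 counts. Ppara was therefore 2.84-fold above Ppard in library 1, and Ppard 10.4-fold above Ppara in library 2, on the TPM scale. The GC content was 51.9% for Ppara and 57.9% for Ppard.

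Whether mitochondrial enzymes stood above peroxisomal ones depended on the measure. Over the 11 mitochondrial enzymes the median was 45.8 TPM in library 1 against 89.1 TPM in library 2, and over the 8 peroxisomal enzymes 11.1 against 57.4 TPM. The ratio of these medians was 4.13 in library 1 and 1.55 in library 2. Values of both groups overlapped in each library, since mitochondrial enzymes ran from 0.98 to 97.7 TPM and peroxisomal ones from 0.46 to 287 TPM in library 1. Summed TPM was 515 for mitochondrial and 408 for peroxisomal enzymes in library 1, but 1117 and 1299 in library 2. Without Scp2 the mitochondrial sum was 4.25-fold and 2.48-fold larger, so the larger peroxisomal sum in library 2 rested on the Scp2 gene total. In that gene the long SCPx transcript was at 281 and 182 TPM, and the short Scp2-202 at 0 and 511 TPM. In library 2 a further 110 TPM came from Scp2-208, a processed transcript. Most of the Scp2 total there was thus not the SCPx transcript, and sums with that transcript alone were not taken. With carriers, transferases and flavoproteins counted in, 19 mitochondrial and 11 peroxisomal members had medians of 43.4 and 44.3 TPM in library 1 and of 82.0 and 61.0 TPM in library 2. Enzymes are not replicates, so no test was made of this difference.

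**Figure D2:**
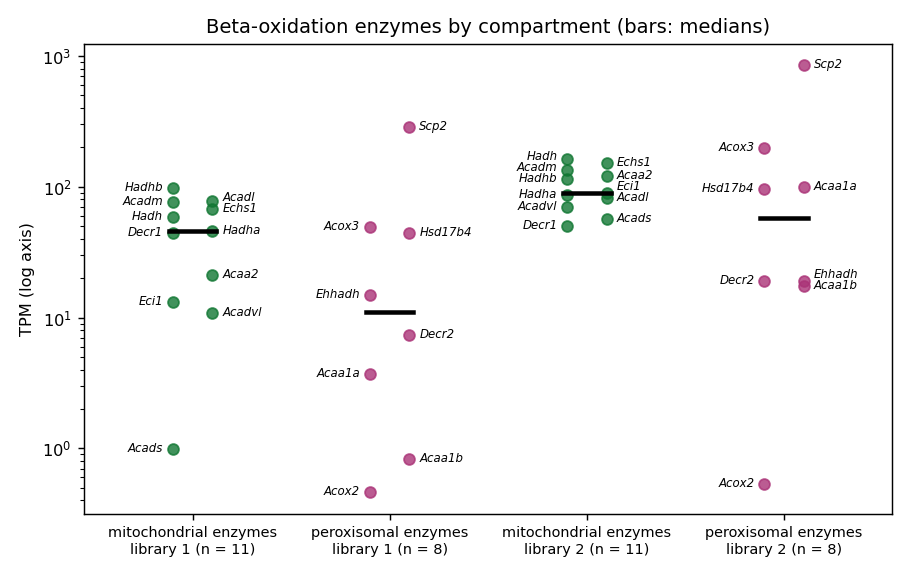
TPM (log axis) of 11 mitochondrial and 8 peroxisomal beta-oxidation enzymes in each library; points are genes and black bars medians. The medians were 45.8 against 11.1 TPM in library 1 and 89.1 against 57.4 TPM in library 2, with Scp2 above and Acox2 below all other enzymes in both.

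Relative to counts scaled by TMM, a trimmed mean that sets the bulk of genes equal, library 2 had 13 of 36 members (36.1%) higher by 2-fold or more, and 1 (2.78%) lower by as much. Over all 18275 genes tested these shares were 30.1% and 18.4%. The test was a two-sided exact binomial test with Benjamini-Hochberg adjustment over all genes, which covers counting error between these libraries and has no replicate check. The share higher was near the background, and the share lower was under it; neither gap was tested. The median log2 ratio of library 2 to library 1 was 0.49 over the members and 0.02 over all genes.

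The members with the largest differences were Acads at a log2 ratio of 5.33 (95% exact interval 4.77 to 6.03), Ppard at 5.26 (4.66 to 6.01) and Etfb at 4.64 (4.26 to 5.08). The peroxisomal thiolases followed, Acaa1b at 3.52 (2.92 to 4.27) and Acaa1a at 3.03 (2.83 to 3.24). Cpt1c at 2.06, Acadvl at 2.03, Eci1 at 2.02, Acot2 at 1.92, Acaa2 at 1.79, Cpt1b at 1.68, Crat at 1.45 and Acot1 at 1.44 were the other members called higher. Abcd2 was the one called lower, at -1.16 (-1.21 to -1.10), though scaling to total counts, which adds 0.44 to each log2 ratio, put it at -0.72, short of 2-fold, and removal of the GC trend described next at 0.06. Of the rest, Crot at -0.91 and Abcd3 at -0.73 lay lowest, and Acadm, at 0.01 (-0.07 to 0.09), differed by less than counting error. By role, calls fell on 2 of 5 shuttle genes, 4 of 11 mitochondrial enzymes, 1 of 3 electron transfer genes, 2 of 8 peroxisomal enzymes, both thioesterases, 1 of 2 acyl carnitine transferases, 1 of 2 peroxisomal transporters and 1 of 2 receptors.

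The members' ratios were ordered by GC content. All 8 members at 55% GC or more were called higher in library 2, with a median log2 ratio of 3.28, beside 86.3% of all 3959 tested genes in that range, whose median was 2.65. Of the 11 members between 50% and 55% GC, 5 were called higher, beside 38.9% of all genes there. None of the 13 between 45% and 50% was called in either direction, in a range where 2.75% of all genes were called higher and 13.4% lower. Their median ratio was 0.01, against -0.43 for all genes in that range. Of the 4 members under 45%, 1 was called lower, beside 59.8% of all genes there, and the medians were -0.82 for these members and -1.16 for all genes. Spearman's rho of log2 ratio with GC content was 0.921 over the 36 members and 0.859 over 18147 genes, as descriptions across genes that share the same 2 libraries. In library 1, the median level was 0.905 TPM for the 8 GC-richest members and 75.5 TPM for the 4 poorest in GC, while in library 2 it was 42.1 and 64.4 TPM.

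When the median ratio of all genes of like GC content was subtracted, 6 members were called higher and none lower, where 9.52% and 8.22% of all genes were called by the same rule. Etfb kept a log2 ratio of 2.19, Ppard 2.44 and Acads 1.71. The other 3 were Acot1 at 1.38, Acaa2 at 1.32 and Echs1 at 1.19, none of which reached 2-fold when the GC content of the longest coding transcript was used instead (0.49, 0.92 and 0.81). With that GC content Etfb was at 2.18, Acads at 1.56 and Ppard at 1.49. The median over the 11 mitochondrial enzymes was 0.74 before and 0.56 after the subtraction, and over the 8 peroxisomal enzymes 0.76 and 0.17. Acaa1a fell from 3.03 to -0.32 on this scale, Acaa1b from 3.52 to 0.17 and Crat from 1.45 to -0.75. Markers of adipocytes had a median log2 ratio of 0.77 before and 0.76 after, and those of epididymal epithelium -0.66 and 0.04. Testis germ cell markers had a median of 1.34 before and 0.73 after, with 4 and then 3 of 8 called higher. The part of these cell types in the members' ratios was not tested.

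**Figure D3:**
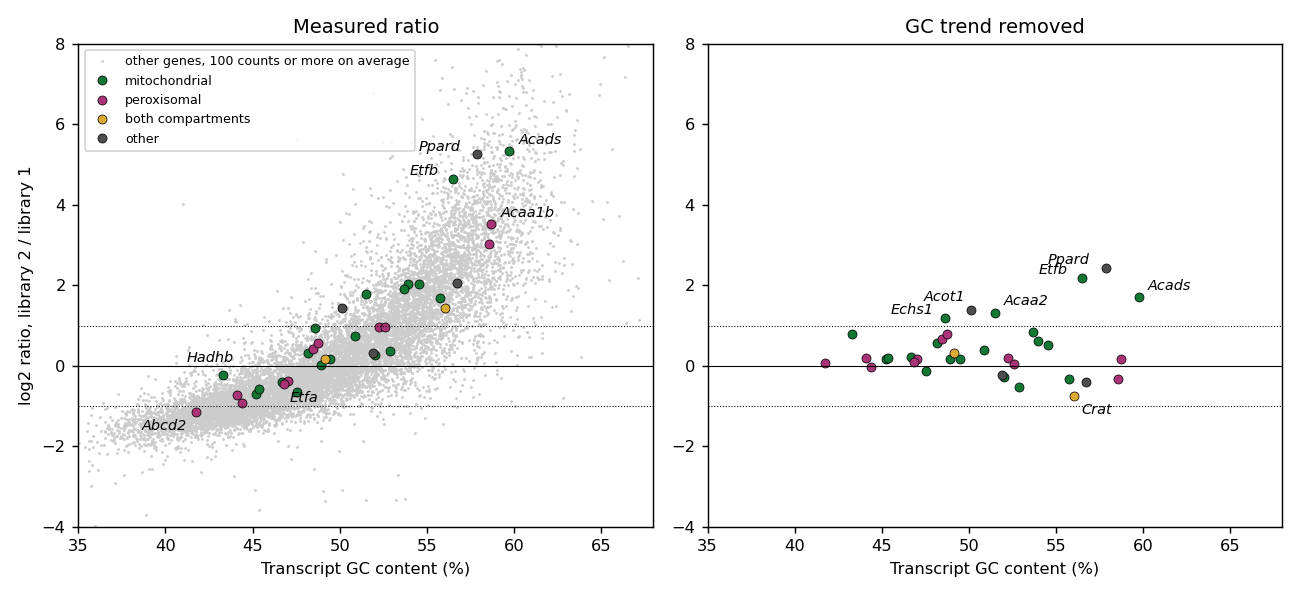
Log2 ratio of library 2 to library 1 against transcript GC content, as measured (left, with other genes of 100 counts or more on average in grey) and after subtraction of the median of all genes of like GC content (right); dotted lines mark 2-fold, and genes outside the axes are not drawn. Members follow the grey cloud on the left, and on the right Etfb, Ppard and Acads stay highest, at 2.19, 2.44 and 1.71.

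Transcript shares, the deposited percent of TPM that each annotated transcript holds within its gene, differed for a subset of members. Of 36 members, 9 had a single annotated transcript, and 20 of the other 27 had the same leading transcript in both libraries. The leading transcript differed for Scp2, Cpt2, Acaa1a, Crat, Eci2, Echs1 and Acox2. For Scp2 the long SCPx transcript (2640 bases, 44.8% GC) took 97.9% in library 1 and 21.5% in library 2, where the short Scp2-202 (772 bases, 52.7% GC) took 60.3%. Scp2-202 had 0 expected counts in library 1 and 4024 in library 2. Total Scp2 counts were 11821 and 11341, and the gene's log2 ratio was -0.45 in TMM-scaled counts and -0.0084 when scaled to total counts. Its TPM was 2.96-fold higher in library 2, with an assigned length of 2597 bases in library 1 against 1183 in library 2 and the smaller share of mitochondrial RNA there.

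For Cpt2, a retained-intron transcript of 634 bases and 46.2% GC (Cpt2-206) took 82.2% in library 1 and 10.2% in library 2, and the full-length coding transcript of 2372 bases, at 52.6% GC, 12.9% and 78.6%. Acaa1a was led in library 1 by the retained-intron transcript Acaa1a-209, at 91.9%, and in library 2 by a coding transcript of 1762 bases, at 75.2%. That coding transcript had 8.07 and 1577 expected counts. In Crat, a coding transcript of 2160 bases took 89.99% in library 1 and one of 3833 bases 54.5% in library 2. In Echs1, an 803-base transcript (ENSMUST00000135842.1, without a name in the annotation used) took 61.0% in library 1 and a coding one of 1557 bases 97.8% in library 2. Acadvl had the same leading transcript, of 2168 bases, at 51.4% and 90.2%. Hadha was led in both libraries by a 2554-base transcript annotated as processed transcript, at 83.5% and 66.5%. The leading transcript of library 2 was richer in GC than that of library 1 in Scp2, Cpt2, Acaa1a and Crat, at 52.7% against 44.8%, 52.6% against 46.2%, 59.4% against 55.3% and 56.1% against 55.6%. Eci2 had 49.5% in both, Acox2 51.2% against 51.3%, and the Echs1 leader of library 1 was not matched to the annotation used.

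**Figure D4:**
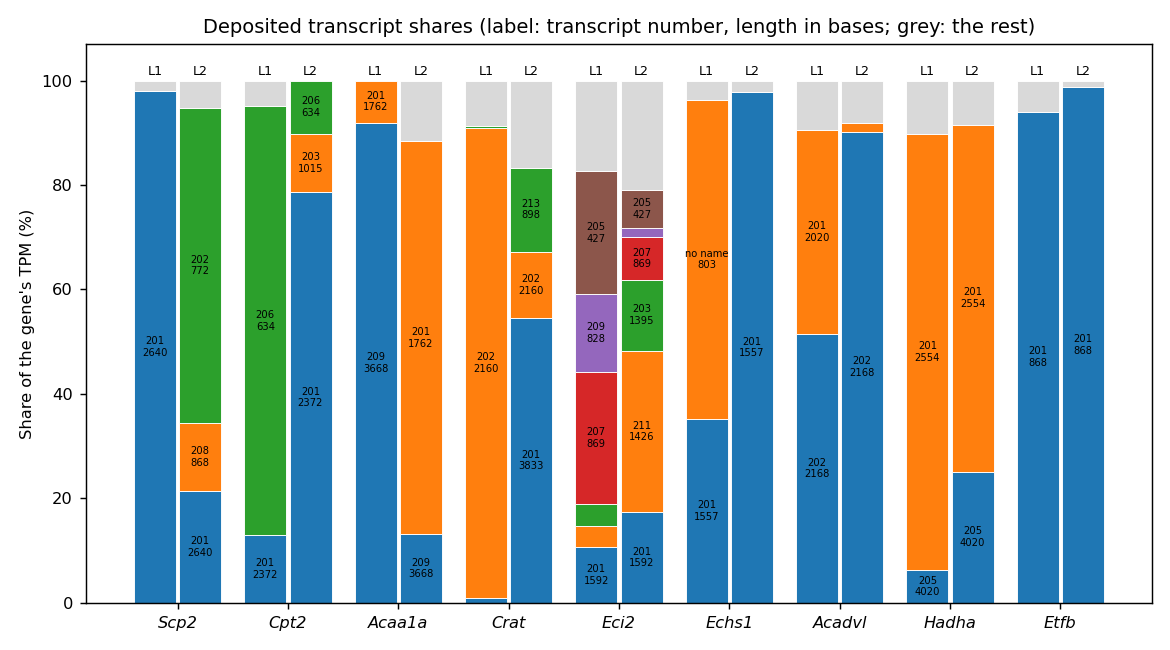
Share of each gene's TPM (percent) by transcript in library 1 (L1) and library 2 (L2) for 9 members; each segment carries the transcript's number and its length in bases, and grey is the sum of transcripts under 10% in both libraries. The long Scp2 transcript goes from 97.9% to 21.5%, whereas the leading Etfb transcript holds 94.1% and 98.7%.

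Near-identical copies limit 4 of these genes. The coding sequences of Acot1 and Acot2, neighbours on chromosome 12, were identical at 95.3% of 1236 aligned bases, with a longest shared run of 273 bases, and those of Acaa1a and Acaa1b at 96.5% of 1272, with a run of 327 bases. The aligned 120-base window with the most differences between Acot1 and Acot2 lies in exon 3 of each (chr12:84016886-84017005 and chr12:83992608-83992727, mm10, plus strand), and its 14 differing bases are in capitals.
Acot1: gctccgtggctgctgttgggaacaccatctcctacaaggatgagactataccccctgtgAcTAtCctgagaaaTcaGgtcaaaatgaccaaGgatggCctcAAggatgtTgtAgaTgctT
Acot2: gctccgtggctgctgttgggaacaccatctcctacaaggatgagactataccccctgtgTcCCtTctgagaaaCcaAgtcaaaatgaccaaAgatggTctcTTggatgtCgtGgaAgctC
Counts were not whole, so reads were shared with other entries, for 8 members: Cpt1b, Hadhb, Eci2, Acaa1a, Acaa1b, Scp2, Acot1 and Acot2, whose levels are uncertain to that extent. Exons of Acadvl, Echs1, Acaa1a, Acaa1b and Crat overlap those of opposite-strand genes at 10 TPM or more in library 2, namely Dvl2, Paox, Myd88, Dlec1 and Dolpp1, and no source used here says whether counting used strand, so such reads cannot be told apart. The largest of these partners was Myd88 at 9.69 and 39.9 TPM, beside Acaa1a at 3.72 and 99.3 TPM.

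Other genes of the pathway were called in both directions, and their counts stand beside 30.1% of all genes called higher and 18.4% lower. The lists are short and were not tested against that background. Of 15 peroxisome assembly genes, which encode the peroxins, 7 were called higher in library 2 and 2 lower, with medians of 10.9 and 29.0 TPM. Pex19, a receptor for membrane proteins, was the highest on average, at 36.6 and 104 TPM. Of 8 further acyl-CoA dehydrogenases 3 were called higher and none lower. Acadsb, for branched short chains, was highest on average, at 132 and 85.4 TPM, though Ivd was above it in library 2, at 155 TPM. Of 9 other peroxisomal lipid enzymes 3 were higher and none lower. Catalase (Cat), which removes the peroxide that the oxidases make, was highest on average, at 161 and 178 TPM. In library 2 Ech1 was above it, at 303 TPM.

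The controls upstream and downstream of oxidation were measured too. Of 3 malonyl-CoA genes 2 were called higher, with medians of 1.49 and 17.4 TPM, and Acaca, which makes malonyl-CoA, the inhibitor of the carnitine shuttle, was highest at 25.5 and 49.2 TPM. Of 5 ketone body enzymes 2 were higher, led by Oxct1, which uses ketone bodies, at 115 and 84.6 TPM. Of 10 PPAR targets, coactivators and RXR receptors, which pair with PPARs, 7 had enough counts to test. Of these 4 were higher, namely Angptl4, the coactivator Ppargc1b and the receptors Rxra and Rxrb. The coactivator Ppargc1a was the 1 called lower. Angptl4, an inhibitor of lipoprotein lipase, led that list at 26.8 and 205 TPM, and the liver PPAR targets Cyp4a10 and Cyp4a14 were listed at 0 in both libraries. With the GC trend removed, 2 peroxisome assembly genes were called higher and 1 lower. By the same rule 1 further acyl-CoA dehydrogenase, 2 other peroxisomal lipid enzymes and 1 ketone body enzyme were called higher. None of the malonyl-CoA genes or of the PPAR list was called.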

How the data were processed

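Adipose polyadenylated RNA of 1 biosample was sequenced in 2 technical libraries of 19954869 and 19256807 expected counts. The authors deposited expected counts (estimates that need not be whole), TPM and FPKM per gene, and the percent of a gene's TPM per transcript, per the file headers, on mm10 (annotation M4, per the accompanying text of the authors). No source used here gives the aligner or quantifier. Symbols, positions, transcript types and GC content came from GENCODE M21 on the same assembly, a later release, and 42462 of 43346 gene identifiers matched. A further 26345 entries, with 0 and 2 counts, were left out.

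Counts were rounded. The 18275 genes with at least 10 summed counts, all 36 members among them, were tested by an exact binomial test with TMM library sizes (edgeR 4.0.16, R 4.3.3) and Benjamini-Hochberg adjustment, and a call needed an adjusted p below 0.05 and a 2-fold change. Log2 ratios added 0.5 to each count. Intervals are 95% Clopper-Pearson intervals and cover counting error only. The GC trend was the median ratio in 40 GC bins. Counts within 0.005 of a whole number were taken as whole. Alternatives used DESeq2 1.42.0 size factors, total counts, other filters, added counts and posterior means. All 36 members are named, with the highest gene of each further pathway list and the highest and lowest of each marker list, on average. Ucp1, Ppargc1a, Ppargc1b, Rxra, Rxrb, Ivd, Ech1, Cyp4a10, Cyp4a14 and 5 overlapping genes, also named, were chosen after their values were seen. Members and lists were chosen with earlier results of these data known. The test was checked on simulated counts. Python 3.11.15, numpy 2.4.6, scipy 1.17.1, pandas 2.3.3 and matplotlib 3.10.9 were used.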

Additional observations from a re-analysis of the deposited data

How the results depend on the processing

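No paired analysis was possible because the labels hold 1 group of 2 technical libraries. Against 13 members called higher and 1 lower in library 2, removal of the GC trend gave 6 and 0, removal with the GC content of the longest coding transcript, an alternative chosen after seeing the data, 3 and 0, an edgeR exact test with an assumed dispersion of 0.16 gave 5 and 0, and total counts 16 and 0. Shares over all genes were taken only for the main test and the removal of the GC trend. Counts of members under the other settings thus have no background beside them. Acads, Etfb and Ppard were called higher under all 11 alternatives run. Signs turned as follows, as log2 ratios of library 2 to library 1. With the GC trend removed they were Cpt1a -0.28, Cpt1b -0.31, Cpt1c -0.39, Cpt2 -0.53, Acadl 0.16, Hadhb 0.80, Decr1 0.20, Etfa 0.23, Ehhadh 0.18, Acaa1a -0.32, Scp2 0.10, Abcd2 0.059, Abcd3 0.20, Crat -0.75 and Ppara -0.23. With the GC content of the longest coding transcript they were Cpt1a -0.18, Cpt1c -0.51, Cpt2 -0.49, Acadl 0.042, Hadha -0.13, Hadhb 0.51, Decr1 0.33, Eci2 -0.41, Etfa 0.33, Ehhadh 0.16, Acaa1a -0.31, Scp2 0.35, Abcd3 0.18 and Ppara -0.13. With total counts they were Hadhb 0.21, Etfa 0.039 and Ehhadh 0.067, and with a filter of 100 counts on average Acadm -0.0049. That filter left 3 members untested. DESeq2 size factors, no filter, 1 or 5 added to each count, posterior mean counts and a dispersion of 0.01 kept the direction and call of all 36 members. The median level of mitochondrial enzymes, 70.8 TPM over both libraries, ran from 45.8 to 89.1 TPM with either library alone, and that of peroxisomal enzymes, 34.3 TPM, from 11.1 to 57.4 TPM. With all members of each compartment these were 51.2 and 51.5 TPM. A leading transcript averaged 90% or more for 22 members, and for 25 in either library alone. Depth limits Acox2 and Ppara, whose ratio intervals of -0.40 to 2.67 and -0.12 to 0.78 allow either direction. The narrower intervals of Slc25a20 (-0.0071 to 0.34) and Acadm (-0.07 to 0.09) allow either direction too.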
